A study of Mus musculus with 12 samples.

Results

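TRBV3 is 1 of the variable gene segments from which mouse T cells assemble the beta chain of their antigen receptor. The deposited contig lists held 592 productive beta chain (TRB) contigs with TRBV3, of 7257 productive TRB contigs in all (8.16%), taken by the V gene named in the lists. They came from 589 cells. Of these contigs, 74 (12.5%) lay in cells with 2 or more productive TRB, against 11.9% of all TRB contigs, and 518 cells had TRBV3 as their only TRB. A further 77 of these cells had no productive alpha chain (TRA). The remaining 441 TRBV3 cells, of 5207 such paired cells, made up 256 of 3108 clonotypes (8.24%). A clonotype was a pair of TRA and TRB nucleotide sequences of the CDR3, counted per library, and 1 of 2 or more cells is called expanded. TRBV3 was chosen by its share among expanded clonotypes, so its share there is given as a description with no test.

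A beta chain is joined from a V, a D and a J segment in the thymus, with bases trimmed from the segment ends and untemplated bases added at the joints. The joined stretch encodes the CDR3, the loop that lies over the peptide when the receptor binds its ligand, while the V segment alone encodes the CDR1 and CDR2, which mostly touch the presenting molecule. Each clone of T cells descends from 1 cell with 1 such joint, so cells that share alpha and beta CDR3 nucleotides are read as sister cells. The receptor libraries came from CD45+ leukocytes sorted from brain parenchyma or meninges of C57BL/6 mice, either 5xFADTg or NonTg, and were made with a 10x Genomics droplet kit for immune profiling. 5xFADTg mice are a model of amyloid plaques, with transgenes that the Thy1 promoter drives in neurons. NonTg mice lack these transgenes. There were 2 parenchyma libraries of each genotype and 1 meninges library of each, and no treatment was given in the labels. Neither ages nor animals per library were named, so p-values measure only the spread of these libraries, which may be technical in part. The 2 parenchyma libraries of a genotype shared 0 clonotypes, with TRBV3 or with other segments. The 6 gene expression samples of the same cells were not analysed here, so CD4, CD8 and other markers could not be set beside the receptors.

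Each library held 15827899 to 26710709 reads and 49997 to 128700 unique molecular identifiers (UMIs) over its contigs, and 425 to 2122 cells with a productive chain. TRBV3 contigs had a median of 8.5 UMIs, and 5 of the 592 rested on 1 UMI. Between 0 and 4 cell barcodes were shared by any pair of libraries (23 over 15 pairs), and none of these carried the same beta chain in both.

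Trbv3 lies on chromosome 6 from 41048290 to 41048828, on the plus strand, between Trbv2 and Trbv4 (mm10, GENCODE M21 annotation). It has 2 exons, from 41048290 to 41048442 and from 41048527 to 41048828, and the second ends with the start of the CDR3. The sequences of the joints are shown first, because the results below turn on the bases between the germline V end and the J segment. The first line is the germline end of Trbv3 from the cysteine codon, as far as any TRBV3 CDR3 kept it, and the next is the germline start of TRBJ1-3 up to the phenylalanine codon that closes the CDR3. The 10 largest TRBV3 clonotypes follow, each as its beta CDR3 from the cysteine to the phenylalanine codon. Capitals mark the 9 bases of 3 codons for glycine, arginine and arginine (Gly-Arg-Arg) where a CDR3 has them, and otherwise the bases matched by neither germline V nor germline J.
Germline Trbv3 end: tgtgccagcagcttagc
Germline TRBJ1-3 start: ttctggaaatacgctctatttt
5xFADTg parenchyma 1, 19 cells, TRBJ1-4: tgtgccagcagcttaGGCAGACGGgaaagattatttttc
5xFADTg parenchyma 2, 16 cells, TRBJ1-2: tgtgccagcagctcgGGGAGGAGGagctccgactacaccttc
NonTg parenchyma 1, 16 cells, TRBJ2-1: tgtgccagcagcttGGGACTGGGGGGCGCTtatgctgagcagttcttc
5xFADTg parenchyma 1, 15 cells, TRBJ2-2: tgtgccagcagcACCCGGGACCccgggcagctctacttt
5xFADTg parenchyma 2, 15 cells, TRBJ2-2: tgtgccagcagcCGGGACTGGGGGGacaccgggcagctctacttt
5xFADTg parenchyma 2, 13 cells, TRBJ1-2: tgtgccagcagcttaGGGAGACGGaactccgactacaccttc
5xFADTg parenchyma 2, 13 cells, TRBJ1-4: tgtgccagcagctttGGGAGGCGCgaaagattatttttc
5xFADTg parenchyma 2, 9 cells, TRBJ2-2: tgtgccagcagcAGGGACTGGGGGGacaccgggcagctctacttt
NonTg parenchyma 1, 8 cells, TRBJ2-3: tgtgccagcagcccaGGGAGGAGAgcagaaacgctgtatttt
5xFADTg parenchyma 2, 6 cells, TRBJ2-2: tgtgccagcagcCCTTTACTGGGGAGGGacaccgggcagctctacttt

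TRBV3 was a common segment in every library. It made up 8.25% and 8.91% of clonotypes in NonTg parenchyma libraries 1 and 2, 5.78% and 10.1% in 5xFADTg parenchyma libraries 1 and 2, 8.74% in NonTg meninges and 7.36% in 5xFADTg meninges. The lowest and the highest library were thus both 5xFADTg parenchyma. Their 95% exact binomial (Clopper-Pearson) intervals, which cover counting error only, were 4.13 to 7.85% and 8.06 to 12.4%. By cells the shares were 7.71% and 6.53% in NonTg parenchyma, 6.63% and 11.6% in 5xFADTg parenchyma, 9.46% in NonTg meninges and 7.57% in 5xFADTg meninges.

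By mean share of clonotypes over the 6 libraries, TRBV3 stood second of 22 V labels at 8.19% ± 1.47 (SD, n = 6). The joint label TRBV12-2+TRBV13-2, given where the lists name both segments, came before it at 11.1% ± 1.22, and TRBV13-3 after it at 7.53% ± 1.26. The ranges of these neighbours, 9.57 to 12.6% and 5.74 to 9.13%, both overlapped the TRBV3 range of 5.78 to 10.1%. Among V segments with at least 40 clonotypes, the shares of TRBV19 (Pearson r = 0.772), TRBV5 (0.704) and TRBV17 (0.499) followed that of TRBV3 most closely. These are correlations over 6 libraries whose V shares add up to a whole, and they carry no test.

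**Figure D1:**
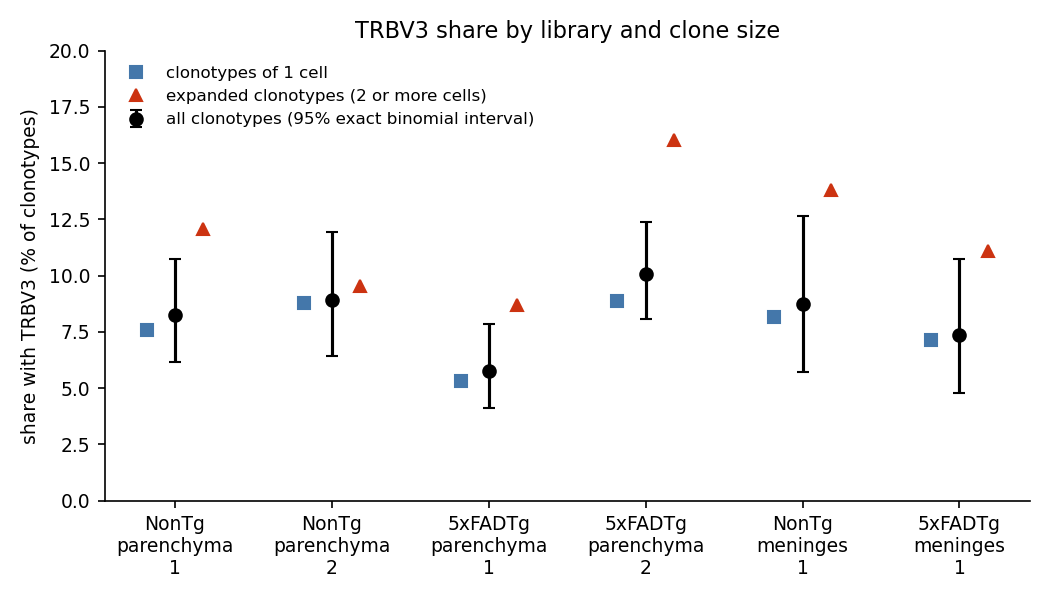
Share of clonotypes with TRBV3 (vertical axis, percent) in the 6 receptor libraries (horizontal axis), with circles for all clonotypes and their 95% exact binomial interval, squares for clonotypes of 1 cell and triangles for expanded clonotypes. The triangle lies above the square in 6 of 6 libraries, from 9.52% against 8.81% in NonTg parenchyma 2 to 16.0% against 8.88% in 5xFADTg parenchyma 2.

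Expanded clonotypes, the values that selected TRBV3, carried it more often than clonotypes of 1 cell. TRBV3 made up 52 of 424 expanded clonotypes (12.3%) and 204 of 2684 of 1 cell (7.60%), and 20.3% of TRBV3 clonotypes were expanded. In NonTg parenchyma its share was 12.1% of expanded against 7.57% of 1-cell clonotypes in library 1, and 9.52% against 8.81% in library 2. In 5xFADTg parenchyma it was 8.70% against 5.31% in library 1 and 16.0% against 8.88% in library 2. In the meninges it was 13.8% against 8.17% in NonTg and 11.1% against 7.14% in 5xFADTg. The direction was the same in all 6 libraries, which held for 1 of 21 TRBV labels (4.76%), TRBV3 itself, and nothing further is read from it. Leaving out each library in turn gave 10.6 to 13.3% of expanded and 7.19 to 8.21% of 1-cell clonotypes, the lowest pair without 5xFADTg parenchyma 2 and the highest without 5xFADTg parenchyma 1.

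By clone size, the share was highest among clonotypes of 2, of 3 to 4 and of 10 or more cells. TRBV3 made up 27 of 206 clonotypes of 2 cells (13.1%), 14 of 111 of 3 to 4 cells (12.6%), 4 of 55 of 5 to 9 cells (7.27%) and 7 of 52 of 10 or more cells (13.5%). The exact binomial interval of the 2-cell class, 8.82 to 18.5%, lay above the 1-cell share of 7.60%. Those of the larger classes, in order 7.07 to 20.3%, 2.02 to 17.6% and 5.59 to 25.8%, held it. Clone size is what selected TRBV3, so these values are description only. No TRBV3 clonotype led its library. The largest of each library had 16 cells and rank 8 in NonTg parenchyma 1, 4 cells and rank 12 in NonTg parenchyma 2, 19 cells and rank 11 in 5xFADTg parenchyma 1, 16 cells and rank 10 in 5xFADTg parenchyma 2, 4 cells and rank 8 in NonTg meninges, and 4 cells and rank 3 in 5xFADTg meninges. The largest clonotype of any segment had 94 cells.

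The 10 largest TRBV3 clonotypes printed above held 130 of the 441 paired TRBV3 cells, and 8 of these clonotypes came from 5xFADTg parenchyma. Libraries 1 and 2 of 5xFADTg parenchyma held 80 and 168 of the 441 cells, and 1206 and 1453 of 5207 paired cells over all segments. Clone size grows with the cells sampled, so no genotype difference is read from the 8. The 10 clonotypes used 9 different alpha chains, as the 15-cell and 9-cell clonotypes of 5xFADTg parenchyma 2 had the same one, TRAV13-1 with TRAJ48. The 19-cell clonotype paired with TRAV3-3 and TRAJ11, the 16-cell clonotype of 5xFADTg parenchyma 2 with TRAV7-5 and TRAJ32, and the 16-cell clonotype of NonTg parenchyma 1 with TRAV6-6 and TRAJ9. The 15-cell clonotype of 5xFADTg parenchyma 1 paired with TRAV19 and TRAJ57, and the 13-cell clonotypes with TRAV6-6 and TRAJ4 and with TRAV21 and TRAJ37. TRBJ2-2 was joined in 4 of the 10 sequences shown, and TRBJ1-2 or TRBJ1-4 in another 4.

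Gly-Arg-Arg in the middle of the beta CDR3 set many TRBV3 clonotypes apart. This motif was chosen after its values were seen, as the first of 214 stretches of 3 residues ranked by their share in TRBV3 minus that in other clonotypes, so it is described by counts alone. It was present in 33 of 256 TRBV3 clonotypes (12.9%, 95% exact binomial interval 9.04 to 17.6%) and in 9 of 2852 clonotypes of other V segments (0.316%). In all 33 it lay at residues 6 to 8, after the 4 residues CASS and 1 variable residue. Only 3 of the 9 others had it at that place.

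The motif was found in every library. Its share of TRBV3 clonotypes was 4 of 50 (8%) in NonTg parenchyma 1, 1 of 40 (2.5%) in NonTg parenchyma 2, 6 of 38 (15.8%) in 5xFADTg parenchyma 1, 15 of 79 (19.0%) in 5xFADTg parenchyma 2, 3 of 25 (12%) in NonTg meninges and 4 of 24 (16.7%) in 5xFADTg meninges. Among clonotypes of other segments the highest library share was 0.662%. Both 5xFADTg parenchyma libraries lay above both NonTg ones, although their binomial intervals overlapped (6.02 to 31.3% and 11.03 to 29.4% in 5xFADTg libraries 1 and 2, 2.22 to 19.2% and 0.0633 to 13.2% in NonTg libraries 1 and 2). This order was not tested, and no other stretch was compared by genotype. With 2 against 2 libraries the smallest exact permutation p is 0.333. In each 5xFADTg parenchyma library a shared alpha chain joined some clonotypes with the motif, so their counts are not all of separate clones. Without 5xFADTg parenchyma 2, the library with most clonotypes with the motif, the counts were 18 of 177 (10.2%) against 7 of 2147 (0.326%).

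**Figure D2:**
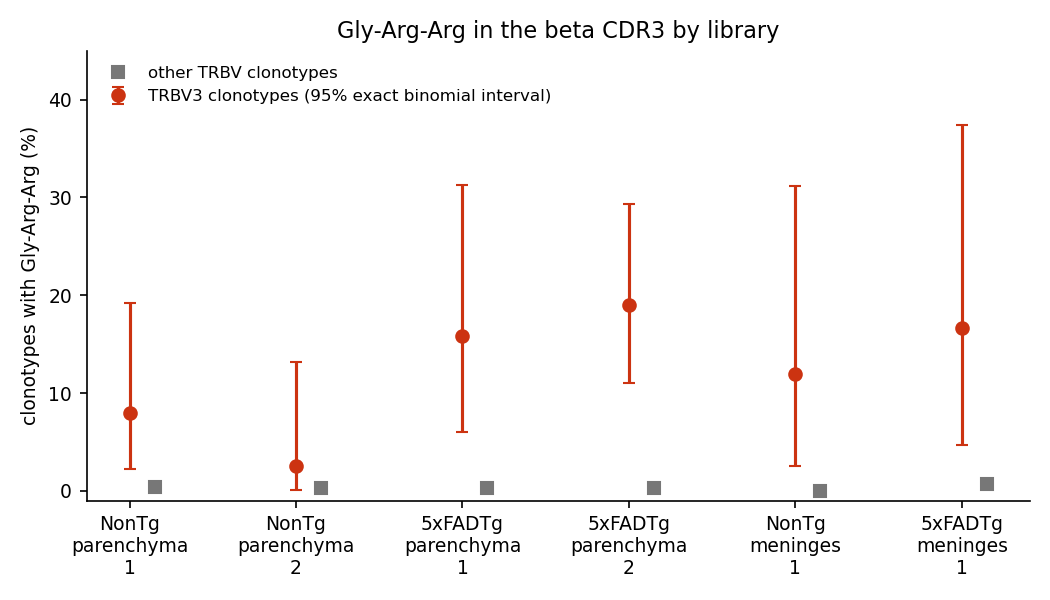
Share of clonotypes with Gly-Arg-Arg in the beta CDR3 (vertical axis, percent) by library, circles for TRBV3 clonotypes with their 95% exact binomial interval and squares for clonotypes of all other V segments. TRBV3 lies above the others in all 6 libraries, from 2.5% in NonTg parenchyma 2 to 19.0% in 5xFADTg parenchyma 2, while the squares stay at 0.662% or below.

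Clonotypes with the motif were not 1 lineage. The 33 clonotypes had 25 distinct beta nucleotide sequences, 19 distinct beta amino acid sequences and 31 distinct alpha nucleotide sequences. Their Gly-Arg-Arg was written in 20 different codon triplets, and 7 to 9 of its 9 bases (median 8) matched neither the germline V end nor the J start. They used 8 J segments, with 12 of 33 on TRBJ1-3, whose first codons give serine, glycine, asparagine and threonine, so that these 12 all read RSGNT across the joint. Of the 33, 21 used the TRBJ1 cluster. Their CDR3 had 13 residues in 7, 14 in 8 and 15 in 18 clonotypes.

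Expanded clonotypes held the motif more often than 1-cell ones, in 15 of 52 (28.8%) against 18 of 204 (8.82%), and 116 of 441 paired TRBV3 cells (26.3%) carried it. By library it was in 3 of 11 expanded against 1 of 39 1-cell clonotypes in NonTg parenchyma 1, and in 0 of 6 against 1 of 34 in NonTg parenchyma 2. It was in 4 of 8 against 2 of 30 in 5xFADTg parenchyma 1, and in 7 of 21 against 8 of 58 in 5xFADTg parenchyma 2. In the meninges it was in 1 of 4 against 2 of 21 in NonTg and in 0 of 2 against 4 of 22 in 5xFADTg. The order therefore held in 4 of the 6 libraries, and the other two had at most 6 expanded TRBV3 clonotypes. Among TRBV3 clonotypes of 5 or more cells, 6 of 11 carried it, as did 5 of the 10 largest. With these clonotypes set aside, TRBV3 made up 37 of 409 expanded clonotypes (9.05%) and 186 of 2666 of 1 cell (6.98%). The order then held in 5 of 6 libraries and was turned in 5xFADTg parenchyma 1 (4.55% against 4.97%). All these counts use the contrast by which TRBV3 was chosen and a motif picked from the same data. They are description only, and whether the motif accounts for the share among expanded clonotypes was not tested. The 15 expanded clonotypes with the motif are not all separate clones. In 5xFADTg parenchyma 2, those of 13 and 2 cells with 1 TRBJ1-4 beta chain had an alpha chain in common. In 5xFADTg parenchyma 1, those of 5 and 3 cells had the TRBJ1-3 beta chain of a 1-cell clonotype, and shared alpha chains left 2 groups.

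A few TRBV3 amino acid sequences were encoded by several nucleotide sequences. This was so for 6 of 222 distinct TRBV3 sequences (2.70%) and for 20 of 2664 others (0.751%). The most widespread had proline before Gly-Arg-Arg and TRBJ1-3 after it, spanned 15 residues, and was encoded by 3 nucleotide sequences in 3 libraries with 7 different alpha chains and 16 paired cells in all. Another had leucine in place of proline and was encoded by 3 nucleotide sequences in 2 libraries with 4 alpha chains. Both are shown, with capitals on the 9 bases of Gly-Arg-Arg, because the codons differ where the amino acids do not.
Proline form, 5xFADTg parenchyma 1, 9 cells: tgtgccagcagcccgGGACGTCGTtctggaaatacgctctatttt
Proline form, 5xFADTg parenchyma 2 and NonTg parenchyma 2, 5 cells: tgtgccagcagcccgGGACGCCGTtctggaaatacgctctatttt
Proline form, 5xFADTg parenchyma 2, 2 cells: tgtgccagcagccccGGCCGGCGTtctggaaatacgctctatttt
Leucine form, NonTg parenchyma 1, 3 cells: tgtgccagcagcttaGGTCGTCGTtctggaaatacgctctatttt
Leucine form, 5xFADTg parenchyma 2, 2 cells: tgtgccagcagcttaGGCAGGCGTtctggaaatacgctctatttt
Leucine form, 5xFADTg parenchyma 2, 1 cell: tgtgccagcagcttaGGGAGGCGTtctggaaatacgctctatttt

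Another amino acid sequence with 2 nucleotide sequences had arginine, aspartate and tryptophan after CASS and used TRBJ2-2. Its forms are the 15-cell and the 9-cell clonotype of 5xFADTg parenchyma 2 printed above. They differed by 1 base, C13A counted from the first base of the cysteine codon, and carried the same TRAV13-1 and TRAJ48 alpha chain to the nucleotide. No cell held both beta chains, whose median depths were 16 and 8 UMIs. The 15-cell form was also found in NonTg parenchyma 2 with another alpha chain.

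Single TRBV3 beta sequences sometimes paired with several alpha chains within a library, in 9 of 246 (3.66%) against 64 of 2787 of other segments (2.30%). Only the alpha chain with most UMIs defined a clonotype, so a clone with 2 alpha chains can count as several clonotypes. When every productive alpha chain of each cell was read, the clonotypes of 6 of these 9 TRBV3 sequences, and of 49 of the 64 others, had an alpha chain in common. In 5xFADTg parenchyma 1, the proline form joined TRAV14-2 with TRAJ26 in 5 cells, TRAV6-7 with TRAJ31 in 3 and TRAV6-7 with TRAJ56 in 1. Of these 9 cells 7 held 2 or more alpha chains, and shared chains left 2 separate groups. In 5xFADTg parenchyma 2, the beta chain of the 13-cell TRBJ1-4 clonotype joined TRAV21 with TRAJ37 in 13 cells and TRAV3-3 with TRAJ7 in 2, and a shared alpha chain joined these into 1 group.

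The first comparison of groups asked whether 5xFADTg and NonTg parenchyma differed in TRBV3. TRBV3 made up 7.93% ± 3.04 of clonotypes in 5xFADTg and 8.58% ± 0.465 in NonTg parenchyma (SD, n = 2 each). The difference of -0.65 points was within the spread of the 5xFADTg libraries (exact permutation p = 1, two-sided as are all tests here, with 0.333 the smallest these libraries can give). By cells it was 9.10% ± 3.49 against 7.12% ± 0.839, a difference of 1.98 points (exact permutation p = 0.667). In the count model over all segments, edgeR's quasi-likelihood test with Benjamini-Hochberg adjustment, the log2 fold change of TRBV3 was -0.09 ± 0.30 (SE) and its adjusted p was 0.959. In that fit 0 of 118 V and J segments passed the threshold of 0.05 (0%). Before adjustment 6 had a p under 0.05 by edgeR and 0 by DESeq2, which also called 0. The difference in clonotypes turned to 1.50 points without 5xFADTg parenchyma 1, and that in cells to -0.487 points without 5xFADTg parenchyma 2.

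The share of TRBV3 cells that lay in expanded clonotypes was higher in each 5xFADTg parenchyma library than in either NonTg one. Clone size grows with the cells sampled, so 766 paired cells, the number in the smallest parenchyma library, were drawn from each library 1000 times and averaged. Of TRBV3 cells, 58.1% and 58.2% were then in expanded clonotypes in 5xFADTg libraries 1 and 2. In NonTg libraries 1 and 2 the shares were 46.5% and 32.0%. The difference was 18.9 percentage points (exact permutation p = 0.333, the smallest that 2 against 2 libraries can give, adjusted p = 1 over 3 values). Cells of all other V segments gave 49.2% and 48.3% in 5xFADTg and 49.4% and 50.8% in NonTg libraries under the same draws. These cells are pooled, and how many single segments order the genotypes in this way was not counted. Few clones can set the TRBV3 values. Before the draws, clonotypes of 19 and 15 cells lay among the 50 TRBV3 cells of expanded clonotypes in 5xFADTg library 1. TRBV3 was chosen by its share among the expanded clonotypes of these libraries. Neither the p nor the gap to other segments is independent of that choice, so both are description only. At the same 766 cells, the difference was 11.6 points without NonTg library 2 and 26.1 without NonTg library 1. Without the clonotypes that carry Gly-Arg-Arg, an alternative chosen after seeing the data, the TRBV3 shares were 38.2% and 45.1% in 5xFADTg against 38.2% and 32.7% in NonTg, a difference of 6.23 points.

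**Figure D3:**
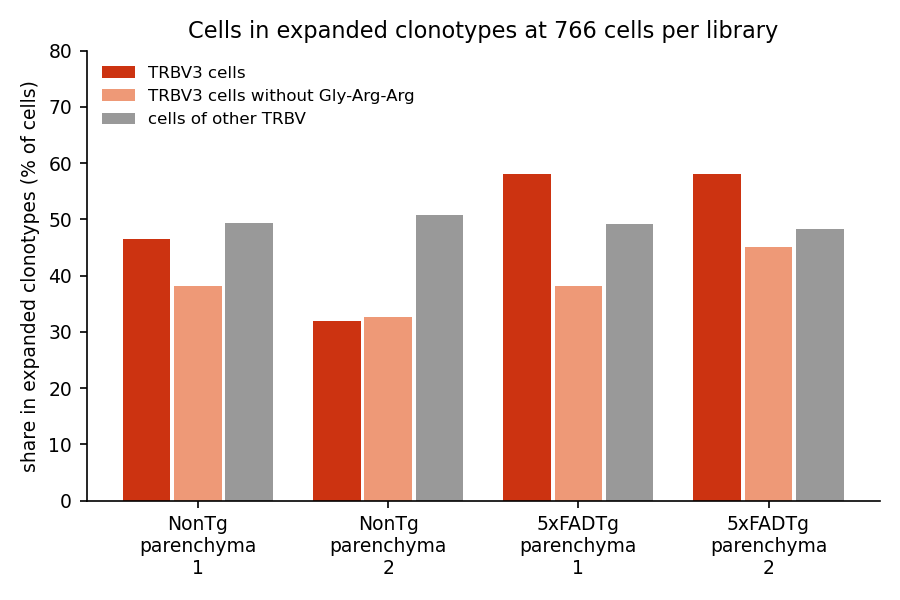
Share of cells in expanded clonotypes (vertical axis, percent, mean of 1000 draws of 766 paired cells) in the 4 parenchyma libraries, as bars for all TRBV3 cells, for TRBV3 cells without Gly-Arg-Arg clonotypes and for cells of all other V segments. TRBV3 cells lie at 58.1% and 58.2% in the 5xFADTg libraries and at 46.5% and 32.0% in the NonTg ones, while cells of other segments lie between 48.3% and 50.8%. TRBV3 was chosen by its share among expanded clonotypes, so the bars are description only.

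The second comparison set meninges against parenchyma. TRBV3 made up 8.05% ± 0.975 of meningeal (n = 2) and 8.25% ± 1.81 of parenchymal clonotypes (n = 4), a difference of -0.20 points (exact permutation p = 0.933, smallest possible 0.0667). By cells it was 8.51% ± 1.34 against 8.11% ± 2.36 (exact permutation p = 0.867). Each test by tissue treats the libraries as independent, although the tissues of a genotype shared 12 TRBV3 and 98 other clonotypes. With genotype as covariate, the edgeR log2 fold change of TRBV3 was -0.05 ± 0.25 (SE, adjusted p = 0.962), and 0 of 120 segments passed (0%). Before adjustment 7 had a p under 0.05 by edgeR and 1 by DESeq2, which also called 0. At 349 cells per library, the share of TRBV3 cells in expanded clonotypes was 36.4% and 21.0% in NonTg and 5xFADTg meninges. In parenchyma it was 36.5% and 20.9% in NonTg and 51.3% and 48.2% in 5xFADTg, so the tissues overlapped (difference -10.5 points, exact permutation p = 0.4). That difference was -2.84 points without 5xFADTg meninges, -18.3 without NonTg meninges, -16.7 without NonTg parenchyma 2 and -6.52 without 5xFADTg parenchyma 1. These shares also use the expanded clonotypes by which TRBV3 was chosen, so they are description only.

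TRBV3 clones were shared between the tissues of a genotype. Of 25 TRBV3 clonotypes in NonTg meninges, 9 (36%, exact binomial interval 17.97 to 57.5%) were also in NonTg parenchyma, against 57 of 261 of other segments (21.8%). In 5xFADTg it was 3 of 24 (12.5%, 2.66 to 32.4%) against 41 of 302 (13.6%). The most abundant shared clonotype was the TRBJ2-1 sequence of NonTg parenchyma 1 printed above, with 16 cells there and 4 in the meninges. Next came the TRBJ1-4 sequence of 13 cells in 5xFADTg parenchyma 2 with 1 cell in 5xFADTg meninges, and the TRBJ2-3 sequence of 8 cells in NonTg parenchyma 1 with 1 in NonTg meninges. These last carry Gly-Arg-Arg. Another 2 of the 9 NonTg clonotypes had 1 beta chain, with TRAV7-2 or TRAV13-4, and were joined by a shared alpha chain in both tissues. None was shared by the 2 parenchyma libraries of a genotype.

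A single clonotype in the series crossed the genotypes, and it used TRBV3, with TRBJ2-7 and an alpha chain of TRAV5-4 and TRAJ50. It had 1 cell in 5xFADTg parenchyma 2 and 1 in NonTg meninges, under different barcodes. Its beta chain rested on 5 and 2 UMIs and its alpha chain on 5 and 223. The capitals mark bases matched by neither germline segment.
Clonotype of both genotypes: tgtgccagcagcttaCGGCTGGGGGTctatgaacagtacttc

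J segment use was tested next, since the rule named the V segment only. Over the 99 TRBJ, TRAV and TRAJ segments with at least 10 clonotypes, 3 differed between TRBV3 and other clonotypes within libraries (3.03%, edgeR adjusted p under 0.05), all 3 lower with TRBV3. DESeq2 called 0 of them, with 6 at an unadjusted p under 0.05. Of the TRBJ1 cluster, 1 of 6 passed and was lower, with a median log2 fold change of -0.48. Of the TRBJ2 cluster, 0 of 6 passed, with a median of 0.07, against -0.04 over all 99 segments and 17 of them at an unadjusted p under 0.05.

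TRBJ1-6 was the J segment that passed. It was in 0 of 256 TRBV3 clonotypes, which allows up to 1.17%, and in 89 of 2852 others (3.12%), at least 2.66-fold lower against a floor of 3 counts over all libraries (edgeR adjusted p = 0.0189). TRBV3 clonotypes lacked it in each of the 6 libraries, where others had 2.44 to 3.60%. The count stayed at 0 whichever library was left out, but the call did not always hold. Without NonTg parenchyma 1 or 2, either 5xFADTg parenchyma library or NonTg meninges the edgeR adjusted p was 0.0598 to 0.112, and without 5xFADTg meninges it was 0.0236.

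The other J segments did not pass. TRBJ2-7 was the most used, in 54 TRBV3 clonotypes (21.1%, others 19.4%), then TRBJ2-1 in 31 (12.1% against 12.1%), TRBJ2-5 in 28 (10.9% against 10.7%), TRBJ2-2 in 27 (10.5% against 5.89%) and TRBJ2-4 in 26 (10.2% against 8.73%). TRBJ1-3 was in 22 (8.59% against 4.56%), TRBJ1-1 in 19 (7.42% against 11.9%), TRBJ2-3 in 17 (6.64% against 7.89%), TRBJ1-2 in 16 (6.25% against 6.66%), TRBJ1-4 in 13 (5.08% against 6.17%) and TRBJ1-5 in 3 (1.17% against 2.88%). TRBJ2-2 had an edgeR adjusted p of 0.194 and a higher share in 5 of 6 libraries. Counted as cells in place of clonotypes, TRBJ2-2 and TRBJ1-1 passed (edgeR adjusted p = 0.0204 and 0.0297). Cells of 1 clone are not independent, and such counts bring in the clone sizes by which TRBV3 was chosen. The 77 TRBV3 cells with TRBJ2-2 included clonotypes of 15, 15, 9 and 6 cells. Within TRBV3, TRBJ2-7 was in 4 of 52 expanded (7.69%) and 50 of 204 1-cell clonotypes (24.5%), and TRBJ2-2 in 9 (17.3%) and 18 (8.82%), a description that shares the selecting contrast.

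**Figure D4:**
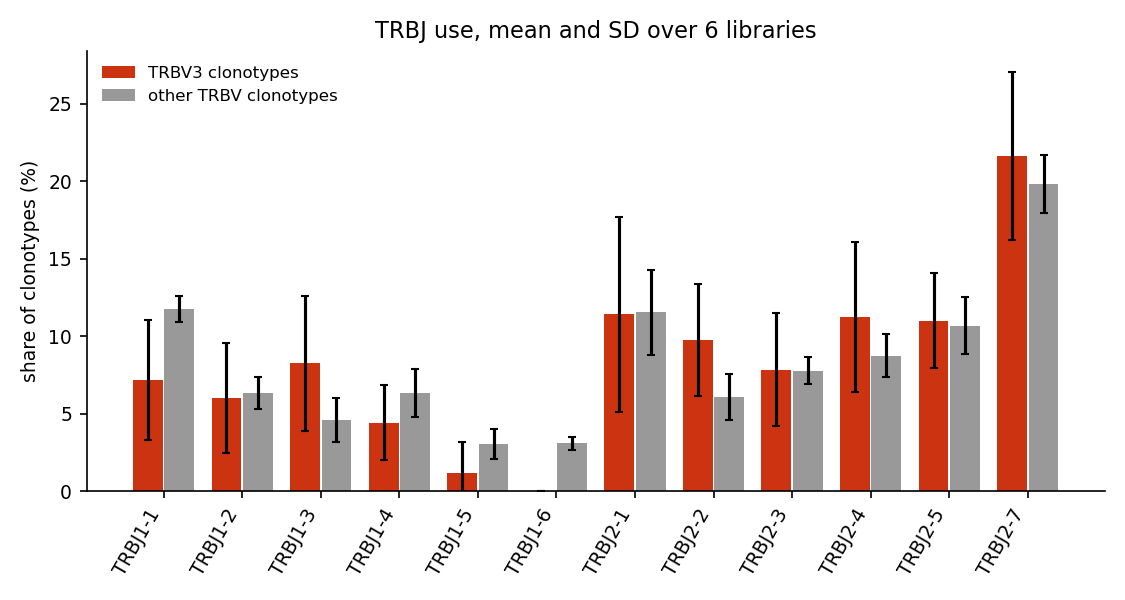
Share of clonotypes by TRBJ segment (vertical axis, percent; mean over 6 libraries, error bars SD), with red bars for TRBV3 and grey bars for other V segments. TRBJ1-6 is at 0 with TRBV3 and at 3.11% with other segments, and most other pairs of bars overlap within their SD.

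TRBJ1 segments as a group made up 24.0% and 27.5% of TRBV3 clonotypes in NonTg parenchyma, 31.6% and 34.2% in 5xFADTg parenchyma, 16.0% in NonTg and 29.2% in 5xFADTg meninges. Other clonotypes had 33.6 to 38.1%. TRBV3 was lower in 6 of 6 libraries, with a mean difference of -8.22 points (27.1% ± 6.44 against 35.3% ± 1.79, SD, n = 6). The exact sign-flip permutation p was 0.0312, the smallest that 6 libraries can give, and 0.0729 after adjustment over 7 measures, so the difference did not pass.

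CDR3 length and the number of added bases did not pass either. The mean beta CDR3 was 14.13 residues with TRBV3 and 14.02 with others, a difference of 0.11 residues, higher in 6 of 6 libraries (exact sign-flip p = 0.0312, adjusted p = 0.0729). It was 0.0648 residues without NonTg parenchyma 1 and 0.0726 without the Gly-Arg-Arg clonotypes (exact sign-flip p = 0.0625 and 0.156). Bases that matched neither germline segment numbered 10.7 ± 0.507 against 10.1 ± 0.183 (SD, n = 6), higher by 0.675 in 6 of 6 libraries with the same exact p and adjusted p. No TRBV3 clonotype lacked such bases (1 to 19 of them), while 14 others did. TRBV3 clonotypes kept a mean of 13.5 germline V bases, and 240 of 256 (93.8%) began with CASS. The next residue was leucine, the germline codon, in 44.2% of these 240, proline in 15% and serine in 13.3%.

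Alpha chains paired with TRBV3 were diverse. The 256 clonotypes used 40 TRAV and 40 TRAJ segments in 216 combinations, and the most frequent combination, TRAV3-3 with TRAJ26, was in 3. The segments most used were TRAV3-3 in 24 clonotypes (9.38%, others 5.33%), TRAV16 in 21 (8.20%, 5.40%), TRAV6-7 in 18 (7.03%, 3.96%), TRAV14-3 in 14 (5.47%, 3.54%) and TRAV13-1 in 12 (4.69%, 3.61%). Of TRAJ segments they were TRAJ26 in 21 (8.20%, 3.997%), TRAJ31 in 15 (5.86%, 4.70%), TRAJ42 in 13 (5.08%, 2.21%) and TRAJ37 in 11 (4.30%, 2.95%), before 7 segments with 10 each. None of these passed the edgeR test (adjusted p 0.237 to 0.817).

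Among segments higher with TRBV3, TRAJ57 (10 clonotypes, 3.91% against 1.12%), TRBJ2-2 and TRAJ26 had the smallest p. Their log2 fold changes were 1.71 ± 0.61, 0.88 ± 0.34 and 1.02 ± 0.42 (SE), with edgeR adjusted p of 0.122, 0.194 and 0.237, and each was higher in 5 of 6 libraries. Counted as cells, TRAV3-3 passed (log2 fold change 1.86, edgeR adjusted p = 0.0204), with the same limit, as 1 clonotype gave 19 of its 60 TRBV3 cells. TRAJ26 was in 6 of 52 expanded and 15 of 204 1-cell TRBV3 clonotypes. Clonotypes with Gly-Arg-Arg used TRAV3-3 in 9 of 33 (27.3%) and TRAV6-7 in 8 (24.2%), against 6.73% and 4.48% of the other TRBV3 clonotypes, as well as TRAJ26 in 5 and TRAJ37 in 4. These counts are not all of separate clones. The TRAV3-3 and TRAJ31 clonotype counts in both NonTg parenchyma 1 and NonTg meninges. The TRAV3-3 and TRAJ7 clonotype was joined to the 13-cell TRAV21 clonotype by a shared alpha chain. In 5xFADTg parenchyma 1, clonotypes with TRAV14-2 and TRAJ26 and with TRAV6-7 and TRAJ31 or TRAJ56 had the same beta chain. Shared alpha chains left 2 groups of them.

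TRBV3 was nearly missing from receptors with TRAV11 and TRAJ18, the pair that makes the alpha chain of invariant natural killer T (iNKT) cells, whose ligands are lipids held by CD1d. TRAJ18 was in 2 of 256 TRBV3 clonotypes (0.781%) and 204 of 2852 others (7.15%), a log2 fold change of -3.15 ± 0.68 (SE, edgeR adjusted p = 0.000504). TRAV11 was in 1 (0.391%) and 170 (5.96%), a log2 fold change of -3.81 ± 0.87 (edgeR adjusted p = 0.000739). Both were lower in 6 of 6 libraries, in which 4.85 to 13.6% of other clonotypes used TRAJ18. Receptors with both segments and an alpha CDR3 of 15 residues, called iNKT-like here from the receptor alone, were 1 of 256 TRBV3 clonotypes and 164 of 2852 others (5.75%). Without 5xFADTg parenchyma 2 both adjusted p were 0.0939. Leaving out all iNKT-like clonotypes, chosen after seeing the data, left TRAJ18 at a log2 fold change of -1.87 (edgeR adjusted p = 0.441). Most other clonotypes with TRAV11 or TRAJ18 were iNKT-like, so these 2 calls are largely 1 observation. The others pool all remaining V segments. No single segment among them was set beside TRBV3, so the lack is not shown to be particular to TRBV3. The alpha chain of mucosal-associated invariant T cells, TRAV1 with TRAJ33 and 12 residues, was in 0 of 256 TRBV3 clonotypes, which allows up to 1.17%, and 23 of 2852 others (0.806%), so no difference was detectable.

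**Figure D5:**
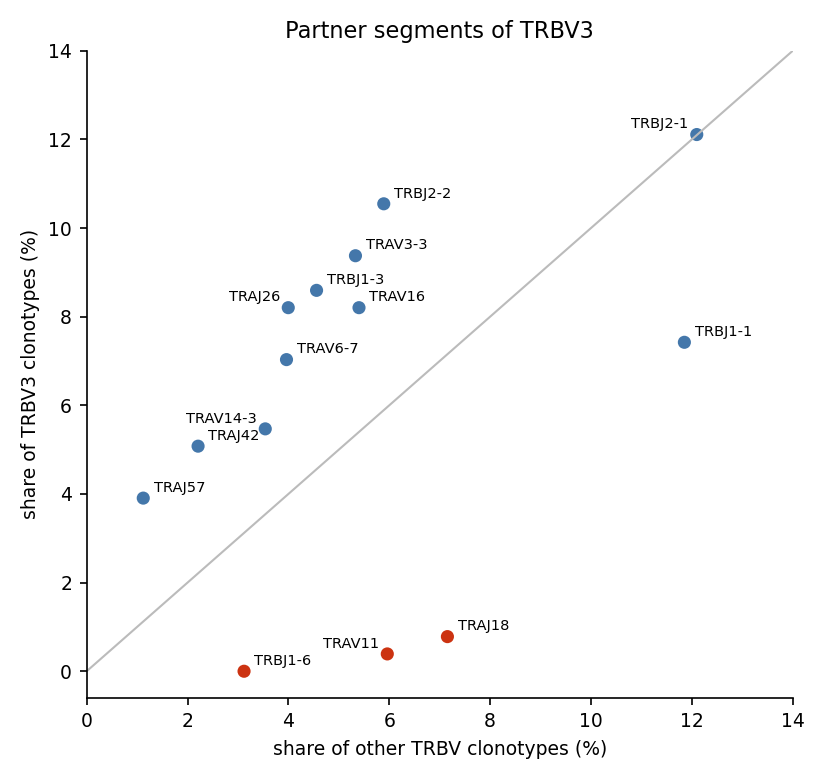
Share of TRBV3 clonotypes (vertical axis, percent) against share of clonotypes of other V segments (horizontal axis, percent) for named partner J and alpha segments, with the line of equal shares; red points passed the edgeR test and blue points did not. TRAJ18, TRAV11 and TRBJ1-6 lie near the bottom at 0.781%, 0.391% and 0%, and TRBJ2-2, TRAV3-3 and TRAJ26 lie above the line.

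Depth and chain pairing of TRBV3 cells were compared last, and none of these measures passed. The median TRB contig of paired TRBV3 cells had 9, 9, 9, 8, 13 and 10.5 UMIs in NonTg parenchyma 1 and 2, 5xFADTg parenchyma 1 and 2, NonTg meninges and 5xFADTg meninges, against 7 to 9 in other cells. It was higher in 5 of 6 libraries and equal in 5xFADTg parenchyma 2 (exact sign-flip p = 0.0625, adjusted p = 0.109, n = 6). A second productive alpha chain was found in 10.99% ± 6.94 of paired TRBV3 cells and 9.08% ± 1.35 of others (exact sign-flip p = 0.625, n = 6), and the alpha CDR3 averaged 13.8 residues against 13.7 (exact sign-flip p = 0.344, n = 6). Cells without an alpha chain were 13.98% ± 4.30 against 16.9% ± 5.18 (exact sign-flip p = 0.156, n = 6).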

How the data were processed

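The deposited files list every contig of a cell with its segments, CDR3 and productive status, and raw counts of reads and UMIs without normalization, per the file headers. Cell Ranger 6.0 and mm10 are named in the submitters' processing notes, and other settings were not given in the sources used here. Cells with exactly 1 productive TRB and at least 1 TRA were kept, the TRA with most UMIs was used, and near-identical TRAV copies were merged. Cells with 2 or more TRB, which can be doublets, were left out, and no other doublet filter was run. TRBV3 and the segment lists were chosen with earlier results of these data known.

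Clonotypes per segment were tested with edgeR 4.0.16 under R 4.3.3 with limma 3.58.1. Library size was the clonotype total, segments under 10 clonotypes were dropped, partners had library as a block, and the adjusted p threshold was 0.05. SEs were the log2 fold change over the root of F. The fits were tested on simulated counts. Values per library were compared by exact permutation, and TRBV3 with other clonotypes by exact sign flips over 6 libraries, with Benjamini-Hochberg adjustment within each family. Intervals are 95% exact binomial, and a count of 0 allows 3 counts; both cover counting error only. Germline ends came from GENCODE M21 (GRCm38), and 95.8% of clonotypes had a value for inserted bases. Python 3.11.15, pandas 2.3.3, numpy 2.4.6, scipy 1.17.1, matplotlib 3.10.9 and DESeq2 1.42.0 were used.

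Named items were TRBV3; partner segments past the threshold, the 3 with smallest p each way, the 5 most used TRAV and TRAJ and every TRBJ; the 10 largest clonotypes and the largest of each library; leading shared and convergent clonotypes; and the V segments next in order or closest in pattern. Alternatives were DESeq2, TMM factors, no count filter, cells in place of clonotypes, at least 2 UMIs per chain, TRB alone, the deposited clonotype identifier, 1-cell clonotypes, clonotypes counted once, no thinning, expansion from 3 cells, a replicate block and each library left out. Leaving out Gly-Arg-Arg or iNKT-like clonotypes was added after seeing the data.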

Additional observations from a re-analysis of the deposited data

Results flagged for a closer look

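TRBV3 beta CDR3 sequences were longer than those of other clonotypes by 0.314 residues in NonTg parenchyma 1, far from the other 5 libraries, where the difference was 0.0236 to 0.103. The gap to the next library was 0.727 of the whole range, above the critical value of 0.625 in Dixon's test for 6 values, which chance passes in about 1 of 20 sets, and 11 sets were tested.

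TRBV3 cells lacked an alpha chain less often than other cells in all 4 parenchyma libraries, by -6.62 to -4.56 percentage points, and more often in both meninges libraries, by 1.62 and 3.82 points. The tissues differed by 8.51 points (exact permutation p = 0.0667, the smallest that 2 against 4 libraries can give). The sign was noticed in these libraries first, so the p is no independent support. In the meninges few cells carry the values. An alpha chain was missing in 4 of 37 TRBV3 cells in NonTg and 7 of 35 in 5xFADTg meninges.

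Nonproductive TRBV3 contigs enter no comparison of the report. They made up 24 of 207 nonproductive TRB contigs in 5xFADTg parenchyma 1 (11.6%, 95% exact binomial interval 7.57 to 16.8%). Every other library was lower, with 2.26 to 7.02% in the NonTg libraries, 2.05% in 5xFADTg parenchyma 2 and 4.11% in 5xFADTg meninges. Of the 24 in 5xFADTg parenchyma 1, 14 joined TRBJ2-7 and had no CDR3 call. A productive TRBV29 and TRBJ1-1 beta chain, found in 40 cells of that library, was carried by 11 of the cells with such a contig. The same pair of contigs was seen in 2 cells of 5xFADTg meninges, of 9 with that beta chain. Without the TRBJ2-7 contigs the TRBV3 share in 5xFADTg parenchyma 1 was 4.83%.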

How the results depend on the processing

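Of 182 alternative values other than the number of partner calls, 154 kept their direction and their side of the threshold. In many of them only the direction could change. Exact permutation over all libraries compared gives no p below 0.333 by genotype or 0.0667 by tissue. Exact sign flips with a library left out give none below 0.0625. The comparisons of TRBV3 share changed sign easily, as differences near 0. Counted as cells, the log2 fold change was 0.35 by genotype and 0.079 by tissue. With TRB alone it was 0.10 by tissue, and the share of clonotypes by tissue differed by 0.603 points. With libraries left out in turn, the log2 fold change was -0.56 to 0.24 by genotype and -0.21 to 0.17 by tissue. The share of clonotypes differed by -2.80 to 1.50 points by genotype and -1.03 to 0.486 by tissue, the share of cells by -0.487 to 4.44 and -0.542 to 1.55, and the additional alpha share by -0.321 to 3.73. Leaving out 1 library turned the sign by genotype for 5xFADTg parenchyma 1 (clonotypes) or 2 (cells), by tissue for NonTg parenchyma 2, 5xFADTg parenchyma 2 or 5xFADTg meninges (clonotypes) and NonTg parenchyma 2, 5xFADTg parenchyma 1 or NonTg meninges (cells), and of the additional alpha share for NonTg parenchyma 2. The labels do not say whether the replicate numbers pair the samples. The deviations of same-numbered parenchyma libraries had a correlation of 0.0782 over 118 segments. Counting error lowers such a value, so it cannot settle whether they were handled together. A replicate block gave TRBV3 a log2 fold change of -0.13 with 0 segments called.

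The 3 partner calls became 0 with DESeq2, 5 with TMM factors, 8 counted as cells and 1 without iNKT-like clonotypes, and 0 to 3 with a library left out. Large clones weigh most in counts of cells, so the 8 calls are no independent support. TRAV11 had under 10 clonotypes without iNKT-like ones and no value there. TMM factors moved the median of all partner segments by -0.53 (log2), and relative to it TRAJ18, TRAV11 and TRBJ1-6 stayed lower with TRBV3, at -3.11, -3.74 and -5.51, the last a fitted value for a count of 0 and no bound. The share of TRBV3 cells in expanded clonotypes differed by genotype by 11.6 to 26.1 points with a library left out, 21.8 without thinning and 22.5 with expansion from 3 cells, and by tissue by -24.2 points without thinning. Depth limits the meninges most, with 24 and 25 TRBV3 clonotypes, where 1 clonotype is about 4% of them. With 2 libraries a group no exact permutation test could pass.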
